A study of Mus musculus
Rattus norvegicus and Rattus norvegicus and Mus musculus with 18 samples.

Results

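The heat shock response was followed through 10 genes, Hspa1a, Hspa1b, Hspb1, Hsph1, Hspd1, Hspe1, Hsp90aa1, Hspa8, Dnajb1 and Chordc1, taken by symbol from separate tables of mouse and rat genes. The mouse table, which held 17672 genes, contained all 10, and the rat table, which held 14876 genes, contained 9, with no row under the symbol Hspa1a. The libraries came from xenografts of 4T1, a mouse mammary carcinoma cell line, placed in the mammary fat pads of SRG rats, so mouse reads represent the implanted cells and rat reads the host. The groups were lung from tumor-bearing rats (5 libraries), the necrotic core of the primary tumor (5 libraries) and its non-necrotic rim (5 libraries), all collected at day 27 from untreated animals recorded as wildtype. Core and rim were cut from the halved tumors of the same 5 animals, Rat3867, Rat3869, Rat3875, Rat3876 and Rat3877. Lung came from the last 4 of these and from Rat3789. Mammary glands of rats with no graft (2 libraries) and a pellet of 4T1 cells (1 library) served as single-species controls. The implanted cells are 1 line, and the animals, not cells, are the replicates.

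Heat shock proteins are molecular chaperones that bind unfolded or partly folded proteins and help them fold, stay soluble or be degraded. Heat, oxidants, energy loss and other stresses that unfold proteins release the transcription factor HSF1 from chaperone-bound inhibition, and HSF1 then drives genes such as Hspa1a, Hspa1b, Hsph1, Dnajb1 and Hspb1. Others, such as Hspa8, are made in quantity by unstressed cells, and tumor cells often hold high levels of HSP90 and mitochondrial chaperones.

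Values are the deposited CPM, read counts scaled within each species, so a mouse value describes the 4T1 fraction and a rat value the host fraction. Within a species, the values of a library summed to 916719 to 1092400, so the scaling was not by total reads alone. Each library held 15346400 to 26669410 reads on mouse genes and 3146720 to 10015352 on rat genes. Mouse reads made up 64.0% to 75.3% of a lung library, 83.8% to 87.4% of a core library and 65.7% to 81.3% of a rim library. One lung library stood apart from its label. The summed level of 6 rat lung epithelium markers was 177.9 CPM in the lung of Rat3789 and 8946 to 16343 CPM in the other 4 lungs, against 139 to 238 CPM in cores and 67.2 to 179.5 CPM in rims. Most of the sum in the lung of Rat3789 was Hopx, at 159.2 CPM. Hopx reached at most 129.3 CPM in cores and 94.7 CPM in rims. None of the other markers exceeded 8.25 CPM in the lung of Rat3789. The counts of members called in lung comparisons are therefore given with and without that library. In whole tissue, fewer cells of a type and less RNA per cell cannot be told apart.

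Hspa1a and Hspa1b encode the stress-inducible HSP70 and are near-identical neighbours on mouse chromosome 17 (GRCm38), Hspa1a at 34969190 to 34972156 and Hspa1b at 34956436 to 34959238, both on the minus strand. Their coding sequences, of 1926 and 1929 bases, were identical at 99.58% of aligned positions in the GENCODE transcripts, with 8 mismatches and a gap of 3 bases. The stretches with the densest differences are shown. Within the coding sequence, a read can tell the copies apart there or over the other mismatches, which lie upstream. Capitals mark the bases that the copies do not share, over coding positions 1768 to 1884 of Hspa1a and 1768 to 1887 of Hspa1b.
Hspa1a: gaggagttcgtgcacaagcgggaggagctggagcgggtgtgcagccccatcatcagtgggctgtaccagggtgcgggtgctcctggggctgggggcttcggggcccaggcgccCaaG
Hspa1b: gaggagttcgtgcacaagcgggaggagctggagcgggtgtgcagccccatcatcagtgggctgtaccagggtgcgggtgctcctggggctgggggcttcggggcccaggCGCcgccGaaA
Of all 150-base windows, 38.1% in the Hspa1a transcript and 40.5% in the Hspa1b transcript also occurred in the other copy. The 3′ untranslated regions were only 61.93% identical over their aligned bases, so reads there separate the copies. No source used here states how reads matching both copies were counted, so the split between them is uncertain. Exons of the antisense gene Gm20481 also cover 564 bases of Hspa1a, and whether counting used strand is not stated either.

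In the mouse genes, 4 of the 9 members that passed the filter of 1 CPM in 5 libraries were higher in core than in rim: Hspb1, Hspa1b, Dnajb1 and Chordc1. Across all mouse genes tested, 10.1% were called higher in core. These 4 were higher in 5 of 5 rats, as were 15.9% of the mouse genes tested. The call rests on the same libraries and favors such genes, so this is not separate support. The call is an adjusted p under 0.05 in limma, with the animal as a block and p-values adjusted over the whole table by the Benjamini-Hochberg method. The median log2 difference of the 9 was 0.46, beside 0.01 over all genes tested. Unless another contrast is named, differences below are core minus rim of log2 CPM, and ± gives the standard error unless SD is named.

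Mouse Hspa1b had 835, 385, 297, 110.3 and 65.7 CPM in the cores of Rat3867, Rat3869, Rat3877, Rat3875 and Rat3876, against 25.8, 56.1, 105, 52.2 and 25.7 CPM in the rims of the same rats in that order. Each core was above the rim of its own animal, but the groups overlapped, because the rim of Rat3877 exceeded the core of Rat3876. The log2 difference was 2.35 ± 0.50, a 5.08-fold higher level in core (limma, adjusted p = 0.0139, higher in 5 of 5 rats). Hspa1a had 3.59, 1.89, 1.87, 0.486 and 0.520 CPM in those cores, against 0.175, 0.393, 0.973, 0.595 and 0.312 CPM in the rims in the same order. These values rest on 9 to 74 reads in cores and 3 to 19 in rims, and the 3 libraries at 1 CPM or more were all cores, so Hspa1a did not pass the filter. With no filter its log2 difference was 1.60 ± 0.60 (limma, adjusted p = 0.103, higher in 4 of 5 rats). With the reads of both copies summed, the difference was 2.34 ± 0.50 (limma, adjusted p = 0.0141), a value that does not depend on how counted reads were split between the copies.

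Hsph1, an HSP110 that exchanges nucleotide on HSP70, had 321, 266, 176, 83.2 and 101 CPM in the cores of Rat3867, Rat3869, Rat3877, Rat3875 and Rat3876, against 61.8, 55.7, 125, 61.1 and 102 CPM in the rims in the same order. Its difference of 1.11 ± 0.35 missed the threshold (limma, adjusted p = 0.0543), with a 95% interval of 0.32 to 1.90. It passed in 3 of 14 alternatives: without the block (limma, adjusted p = 0.0445), without Rat3876 at 1.39 (limma, adjusted p = 0.0383) and without Rat3877 at 1.27 (limma, adjusted p = 0.0490). Over the 14 alternatives the difference fell as low as 0.31. Within Rat3867 and Rat3869 the Hsph1 difference was 2.375 and 2.257, against 0.45, -0.01 and 0.50 in Rat3875, Rat3876 and Rat3877. Dnajb1, an HSP40 that hands unfolded protein to HSP70, had 211, 161, 90.0, 85.3 and 62.4 CPM in those cores, against 52.8, 62.5, 61.3, 67.6 and 49.9 CPM in the rims. The core of Rat3876 was the only one below a rim value of another animal, and the difference was 0.92 ± 0.24 (limma, adjusted p = 0.0292, higher in 5 of 5 rats). Without Rat3867 it was 0.64 (limma, adjusted p = 0.0638), and without Rat3869 it was 0.80 (limma, adjusted p = 0.0858). Hspa8, the constitutive HSP70, ranged from 1303 to 1719.6 CPM in cores, against 1189 to 1677 CPM in rims, and the groups overlapped over most of that range. Its log2 difference of -0.05 had a 95% interval of -0.31 to 0.20 (limma, adjusted p = 0.764).

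In the HSP90 system, Chordc1 was called and Hsp90aa1 was not. Hsp90aa1, the stress-responsive cytosolic HSP90, had 2001, 2431, 1386, 1072 and 1203 CPM in the cores of Rat3867, Rat3869, Rat3877, Rat3875 and Rat3876, against 833, 1073, 1799, 1150.5 and 1048 CPM in the rims. The cores of Rat3877 and Rat3875 lay below the rims of the same animals, and the difference of 0.43 had a 95% interval of -0.12 to 0.99 (limma, adjusted p = 0.245). Chordc1, an HSP90 cochaperone whose locus holds the pseudogene Gm19178 on the other strand, had 116, 114, 111, 84.1 and 113 CPM in those cores, against 83.6, 79.8, 94.2, 73.5 and 91.6 CPM in the rims. The core of Rat3875 stood below the other 4 and within the rim range, and the difference of 0.34 ± 0.09 was small (limma, adjusted p = 0.0300, higher in 5 of 5 rats). Leaving out Rat3867, Rat3869, Rat3875 or Rat3876 each lost the call of Chordc1, with differences of 0.30 to 0.38 (limma, adjusted p = 0.0611 to 0.121).

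Mitochondrial chaperonins showed no call in the mouse genes. Hspd1, which forms the folding chamber of the mitochondrial matrix, had 617, 788, 580.5, 417 and 528 CPM in the cores of Rat3867, Rat3869, Rat3877, Rat3875 and Rat3876, against 443, 464, 649.9, 537 and 518 CPM in the rims. The difference was 0.15, with a 95% interval of -0.22 to 0.52 (limma, adjusted p = 0.555, higher in 3 of 5 rats). Hspe1, the lid of that chamber, had 208, 332, 164, 114 and 134 CPM in those cores, against 99.3, 141, 164, 111 and 138 CPM in the rims. The cores of Rat3867 and Rat3869 were above every rim, that of Rat3877 was level with its own rim, and the difference was 0.46, with a 95% interval of -0.01 to 0.93 (limma, adjusted p = 0.150). The 2 genes overlap by 112 bases on opposite strands of mouse chromosome 1.

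Hspb1, the small heat shock protein HSP27, which keeps unfolded protein soluble, was the lone member whose mouse groups did not overlap. Over all genes tested, 7.08% were higher in core with no overlap. It had 62.7, 91.0, 36.2, 6.01 and 6.81 CPM in the cores of Rat3867, Rat3869, Rat3877, Rat3875 and Rat3876, against 1.72, 3.76, 3.87, 5.02 and 1.73 CPM in the rims. The cores of Rat3875 and Rat3876 were close above the rim range, and the other 3 cores were well above it. The difference was 3.05 ± 0.62, an 8.28-fold higher level in core (limma, adjusted p = 0.0117, higher in 5 of 5 rats).

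**Figure D1:**
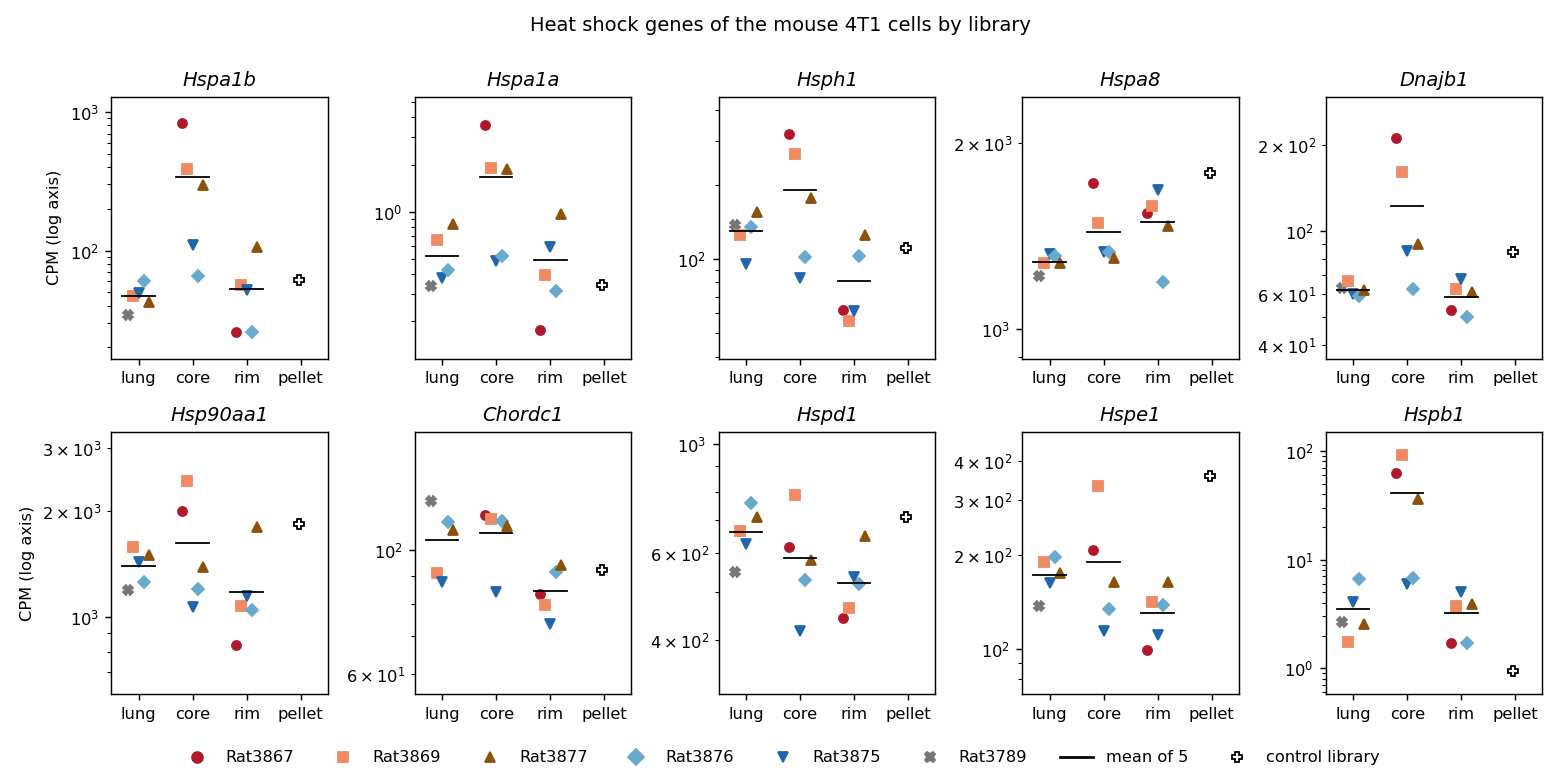
CPM of each heat shock gene in the mouse table on a log axis, by library, for lung, core, rim and the 4T1 pellet; points are libraries marked by animal and lines are means of 5. The cores of Rat3867 and Rat3869 are the highest cores in every panel, and the mouse Hspb1 cores, at 6.01 to 91.0 CPM, all lie above the rims, at 1.72 to 5.02 CPM.

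The cores differed among themselves in a shared order. For all 10 mouse members the cores of Rat3867 and Rat3869 were the highest pair, and the core of Rat3875 was among the lowest pair. The summed level of the 10 was 6095, 6055, 4146, 3302 and 3545 CPM in the cores of Rat3867, Rat3869, Rat3877, Rat3875 and Rat3876, against 3142, 3516, 4467, 3735 and 3165 CPM in the rims. Without Rat3867 and Rat3869, an alternative chosen after seeing the data, 1 of the 9 mouse members was called, Hspa1b at 1.31 (limma, adjusted p = 0.00673), against 5.29% of all mouse genes called higher in that fit. In that fit of 3 animals Hspb1 was at 1.82 (limma, adjusted p = 0.0768) and Dnajb1 at 0.40 (limma, adjusted p = 0.0765). Rims did not repeat the order of the cores, the rim of Rat3877 being the highest for 7 of the 10 mouse members.

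Other signals in the same mouse libraries are set beside these values. Of 9 hypoxia genes tested, 8 were higher in core, led by Adm at 1.13, Ndrg1 at 1.10 and Higd1a at 1.10, and their summed level was 1746 to 3522 CPM in cores, against 1044 to 1677 CPM in rims. Among cores that sum was highest in Rat3875 and lowest in Rat3869. The summed level of the 10 members was lowest in Rat3875, the lowest core for 7 of the 10. Hspa1b and Dnajb1 were lowest in the core of Rat3876, and Hspa8 in that of Rat3877. Of 12 immediate early genes, which respond quickly to growth signals and stress, 5 were higher in core, led by Dusp1 at 2.42, Atf3 at 2.15 and Fos at 1.73. All 5 mitotic genes were lower in core, with a summed level of 394 to 683 CPM in cores, against 1213 to 1753 CPM in rims. Of 5 epithelial markers of 4T1 cells, 4 were lower in core, with a sum of 2270 to 3738 CPM in cores, against 3994 to 4849 CPM in rims. The part of these signals in the member results was not tested.

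In the rat genes, all 9 members in the table passed the filter and all 9 were higher in core than in rim, against 17.5% of all rat genes tested. Each was higher in 5 of 5 rats, which 21.0% of the rat genes tested showed and which the call itself favors. The groups did not overlap for 4 of the 9, Hspa1b, Hspa8, Hspd1 and Hspe1, against 11.8% of genes higher with no overlap. The median log2 difference of the 9 was 0.925, beside -5.84e-05 over all genes tested.

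Rat Hspa1b had 361, 305, 194, 67.9 and 124 CPM in the cores of Rat3867, Rat3869, Rat3877, Rat3875 and Rat3876, against 11.4, 27.4, 64.9, 9.68 and 13.9 CPM in the rims in the same order. Every core was above every rim, narrowly so for the core of Rat3875 and the rim of Rat3877. The difference was 3.20 ± 0.39, a 9.21-fold higher level in core (limma, adjusted p = 0.000527). In the table of rat genes the symbol stands without its neighbour copy, so reads of any second rat copy cannot be set apart.

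Rat Hsph1 had 669, 438, 387, 148 and 286 CPM in the cores of Rat3867, Rat3869, Rat3877, Rat3875 and Rat3876, against 129.8, 138, 194, 84.9 and 109.9 CPM in the rims. The core of Rat3875 fell within the rim range, and the difference was 1.44 ± 0.20 (limma, adjusted p = 0.00107). Rat Hspa8 had 1591, 1305, 1188, 1228 and 1187 CPM in those cores, against 795, 879, 956, 808 and 750.2 CPM in the rims. No core reached down to a rim, and the difference was 0.63 ± 0.12 (limma, adjusted p = 0.00364). Rat Dnajb1 was at 84.8 to 130.05 CPM in cores, against 65.5 to 105 CPM in rims, with the smallest difference of the 9 at 0.43 ± 0.12 (limma, adjusted p = 0.0237). That call was lost without the block (limma, adjusted p = 0.0507), and the adjusted p was 0.0852, 0.0638 and 0.0572 without Rat3867, Rat3869 or Rat3875.

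Rat Hsp90aa1 was at 78.7 to 172 CPM in cores, against 47.3 to 84.2 CPM in rims, and the difference was 0.88 ± 0.16 (limma, adjusted p = 0.00317). Rat Chordc1 was at 49.8 to 74.8 CPM in cores, against 38.8 to 59.1 CPM in rims, and the difference was 0.50 ± 0.11 (limma, adjusted p = 0.00762). In both genes the core of Rat3875 was the lowest core and lay inside the rim range.

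Both rat chaperonin genes separated core from rim. Rat Hspd1 had 513, 375, 423, 282 and 398 CPM in the cores of Rat3867, Rat3869, Rat3877, Rat3875 and Rat3876, against 204, 189, 263, 166 and 219.5 CPM in the rims, a difference of 0.92 ± 0.11 (limma, adjusted p = 0.000420). Rat Hspe1 had 145, 169, 128, 111 and 128 CPM in those cores, against 61.3, 62.4, 83.04, 62.2 and 71.2 CPM in the rims, a difference of 1.00 ± 0.13 (limma, adjusted p = 0.000642). The lowest core of each gene, that of Rat3875, was above the highest rim, that of Rat3877.

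Rat Hspb1 had 181, 204, 204, 54.8 and 65.3 CPM in the cores of Rat3867, Rat3869, Rat3877, Rat3875 and Rat3876, against 56.7, 62.4, 74.5, 47.7 and 49.1 CPM in the rims. The cores of Rat3875 and Rat3876 lay inside the rim range, and the difference was 1.09 ± 0.24 (limma, adjusted p = 0.00798). The pellet of pure 4T1 cells bears on this value, since 29 of its reads were placed on rat Hspb1 and 28 on mouse Hspb1. At that ratio, mouse transcripts would account for 67.2% to 334% of the rat Hspb1 reads in cores and 6.89% to 50.8% in rims. The ratio rests on few reads and is too high for the cores of Rat3867 and Rat3869. It predicts 1345 and 2167 misplaced reads there, more than the 746 and 648 counted. If misplaced reads instead scale with all mouse reads in a library, removing them left the difference at 1.10 (limma, adjusted p = 0.0128). A rise of host Hspb1 in core and misplaced mouse reads cannot be told apart. For the other 8 rat members the same ratio gave 0.368% to 11.3% of the reads in cores, the highest being Hspd1. In the reverse direction, rat transcripts at the gland ratio would account for at most 9.004% of the core reads of any mouse member with a rat counterpart, the highest being Hspa1b.

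**Figure D2:**
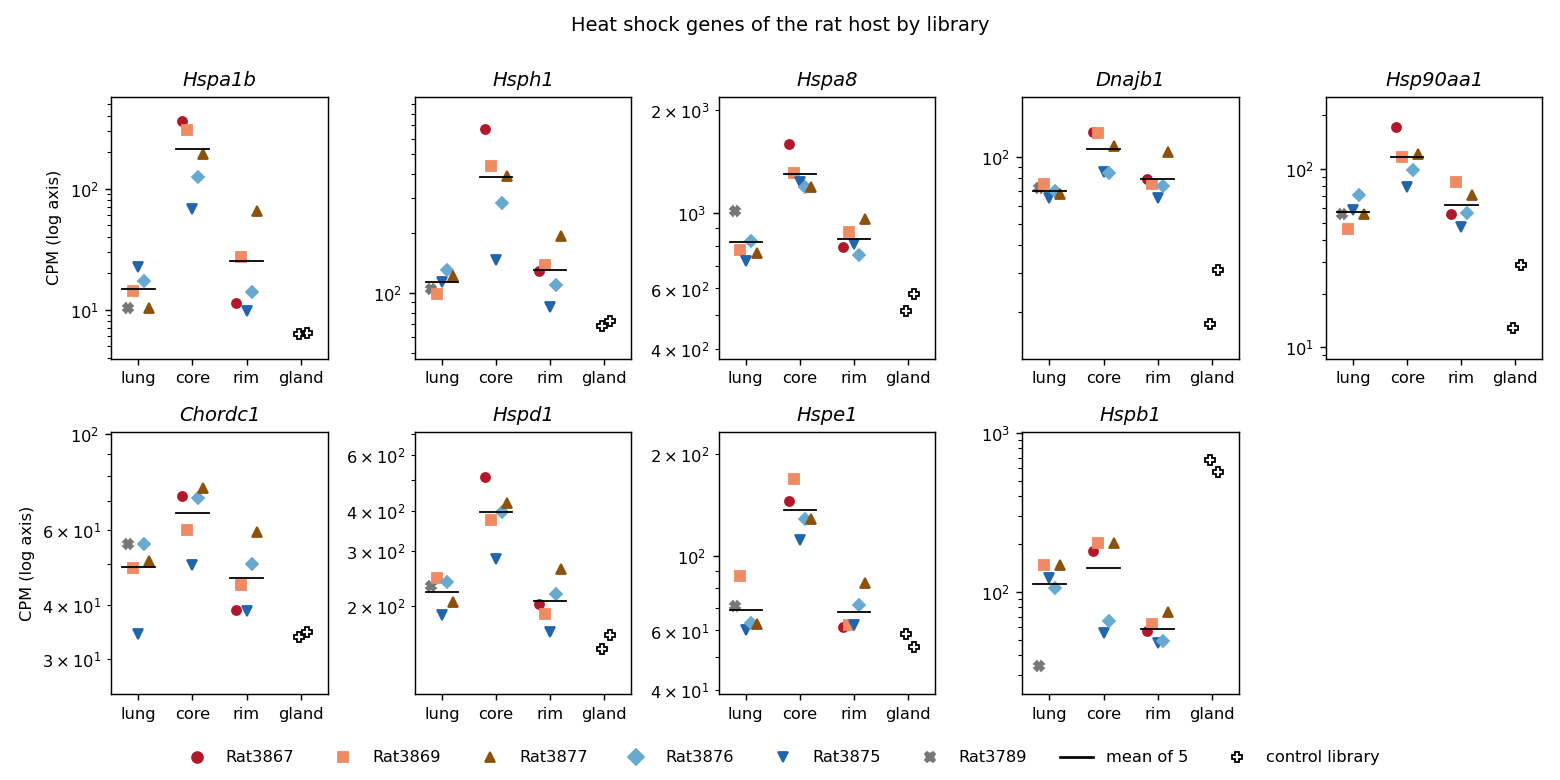
CPM of each heat shock gene in the rat table on a log axis, by library, for lung, core, rim and normal mammary gland; points are libraries marked by animal and lines are means of 5. Every rat Hspa1b core, at 67.9 to 361 CPM, lies above every rim, at 9.68 to 64.9 CPM.

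Among the rat values of the cores, Rat3867 was in the highest pair for 8 of the 9 members, and Rat3875 was the lowest for 7 of the 9. In rims, Rat3877 was the highest for 8 of the 9 rat members and Rat3875 the lowest for 7. Without Rat3867 and Rat3869, 6 of the 9 rat members were called in the remaining 3 animals, namely Hspa1b, Hsph1, Hspa8, Hspd1, Hspe1 and Hsp90aa1, against 10.5% of all rat genes called higher in that fit. In that fit Hspb1 was at 0.69 (limma, adjusted p = 0.0844), Chordc1 at 0.40 (limma, adjusted p = 0.0543) and Dnajb1 at 0.22 (limma, adjusted p = 0.215).

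**Figure D3:**
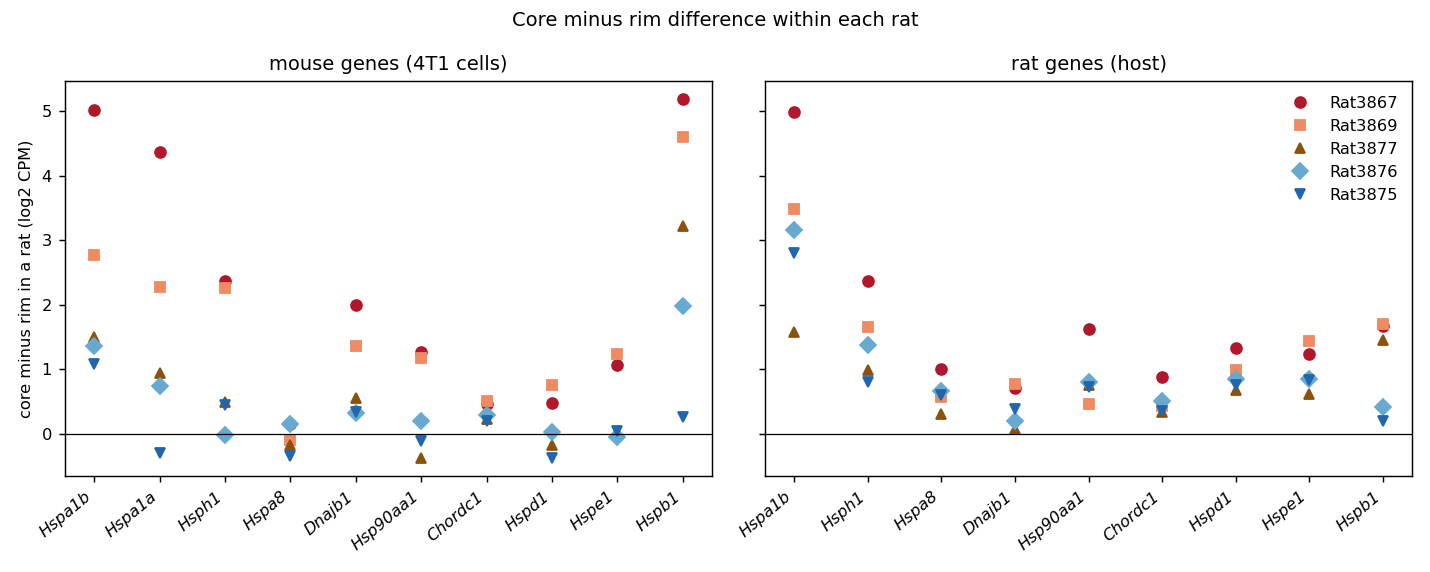
Difference in log2 CPM, core minus rim, within each of 5 rats, for mouse genes (left) and rat genes (right); each point is 1 animal. Rat3867 has the largest Hspa1b difference in both species, at 5.02 for the mouse gene and 4.99 for the rat gene, and all rat points lie above 0.

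Marker RNA of several host cell types differed in the same contrast. All 5 rat fibroblast markers tested were lower in core, with a summed level of 3255 to 11037 CPM in cores, against 30906 to 56155 CPM in rims. All 4 neutrophil markers were higher, with sums of 168 to 1184 CPM in cores, against 121 to 169 CPM in rims. Of 6 macrophage markers, 3 were higher and 3 lower, with sums of 5816 to 8888 CPM in cores, against 3340 to 6603 CPM in rims. Skeletal muscle markers summed to 45.4 to 4025 CPM in cores, against 35.6 to 1017 CPM in rims, with 0 of 6 called, and 4025 CPM was in the core of Rat3876. Rat hypoxia genes counted 7 higher of 10, with sums of 3232 to 5316 CPM in cores, against 1586 to 2717 CPM in rims, the highest again in the core of Rat3875. The part of these signals in the rat member results was not tested.

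The core minus rim difference of a mouse gene was then set against that of the rat gene of the same symbol within each animal. Of the 9 shared members, 4 were called, against 34.7% of 9740 shared symbols in either direction. That count is near the share over all symbols, and it ran from 2 to 4 with 1 animal left out. Rat Hspd1, Hspe1 and Hspa8 differed more than their mouse counterparts. The mouse minus rat value was -0.78 ± 0.15 for Hspd1 (limma, adjusted p = 0.00862), -0.54 ± 0.15 for Hspe1 (limma, adjusted p = 0.0278) and -0.68 ± 0.12 for Hspa8 (limma, adjusted p = 0.00663). In each of the 5 rats the value was below 0 for these 3 genes. Hspb1 went the other way at 1.96 ± 0.49 (limma, adjusted p = 0.0210, above 0 in 5 of 5 rats), and its rat side carries the limit on misplaced reads given above. Hspe1 lost its call without Rat3875, Rat3876 or Rat3877, with values of -0.45 to -0.51 (limma, adjusted p = 0.0760 to 0.0873), and Hsp90aa1, at -0.44 with all 5 rats (limma, adjusted p = 0.212), was called at -0.73 without Rat3869 (limma, adjusted p = 0.0180). Hspb1 lost its call at 1.57 without Rat3867 (limma, adjusted p = 0.0556), at 1.73 without Rat3869 (limma, adjusted p = 0.0520) and narrowly at 2.01 without Rat3877 (limma, adjusted p = 0.05003). For Hspa1b the value was -0.86, with a 95% interval of -1.59 to -0.13 (limma, adjusted p = 0.0689), and for Hsph1 it was -0.33, with an interval of -0.94 to 0.29 (limma, adjusted p = 0.358).

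**Figure D4:**
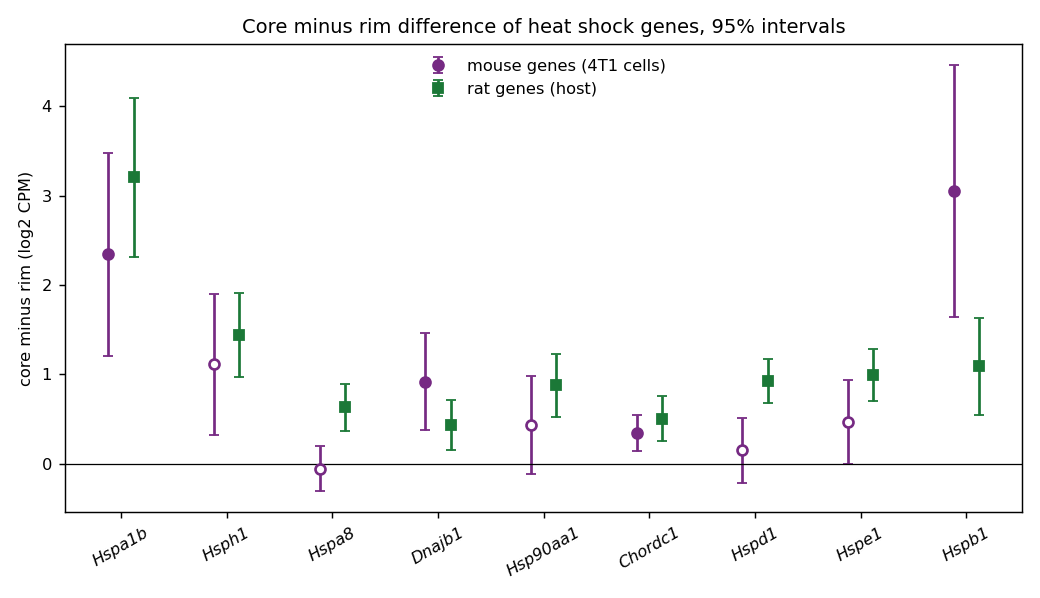
Log2 difference, core minus rim, of each heat shock gene that passed the filter, for mouse genes (circles) and rat genes (squares), with 95% intervals from limma; open symbols missed an adjusted p of 0.05. The mouse value lies below the rat value for Hspd1 (0.15 in mouse, 0.92 in rat) and Hspa8 (-0.05 in mouse, 0.63 in rat), and above it for Hspb1 (3.05 in mouse, 1.09 in rat).

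The mouse members in lung were compared with core first and then with rim. Mouse Hspa1b was at 34.2 to 60.8 CPM in lungs, against 65.7 to 835 CPM in cores, with no overlap, and against 25.7 to 105 CPM in rims. Of all mouse genes tested, 10.9% were lower in lung than in core with no overlap. Lung versus core, 3 of the 9 mouse members were lower and none higher, against 19.1% of genes called lower. They were Hspa1b at -2.34 ± 0.53 (limma, adjusted p = 0.00408), Hspb1 at -2.93 ± 0.70 (limma, adjusted p = 0.00564) and Dnajb1 at -0.83 ± 0.26 (limma, adjusted p = 0.0254). Without the lung of Rat3789 the same 3 were called lower, at -2.23, -2.87 and -0.83, against 20.4% of genes. Dnajb1 lost the call without Rat3869, Rat3875 or Rat3877, at -0.72 to -0.91 (limma, adjusted p = 0.0531 to 0.0732). Mouse Hspb1 was at 1.75 to 6.66 CPM in lungs, against 6.01 to 91.0 CPM in cores, the lung of Rat3876 overlapping the core of Rat3875.

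Lung versus rim, 1 of the 9 mouse members was called higher, a count near the share over all genes, 9.91%. It was Hsph1, with 95.4 to 154 CPM in lungs, against 55.7 to 125 CPM in rims, at 0.73 ± 0.22 (limma, adjusted p = 0.0357, higher in 4 of 4 rats with both). Without the lung of Rat3789, Hsph1 missed the threshold at 0.70 ± 0.24 (limma, adjusted p = 0.0564), and Hspd1 at 0.41 ± 0.11 (limma, adjusted p = 0.0259) and Hspe1 at 0.49 ± 0.14 (limma, adjusted p = 0.0267) passed it, against 10.8% of genes. Hsph1 was also lost without Rat3867, Rat3869, Rat3875 or Rat3876, at 0.62 to 0.82 (limma, adjusted p = 0.0626 to 0.129), and with edgeR at 0.67 (edgeR, adjusted p = 0.0514). Mouse Hspd1 was at 550.2 to 758 CPM in lungs, against 443 to 649.9 CPM in rims, and Hspe1 at 137 to 196 CPM in lungs, against 99.3 to 164 CPM in rims, so both overlapped. With the animal as a block in the 4 rats with both tissues, Hsph1 at 0.63 (limma, adjusted p = 0.0238), Hspd1 at 0.36 (limma, adjusted p = 0.0464) and Hspe1 at 0.40 (limma, adjusted p = 0.0274) were called, each higher in 4 of 4 rats. For Hspa1b the lung minus rim difference was 0.00, with a 95% interval of -0.73 to 0.74 (limma, adjusted p = 0.996), and 0.11 without the lung of Rat3789 (limma, adjusted p = 0.852). Of 9 mouse hypoxia genes, 9 were lower in lung than in core and 3 lower in lung than in rim, and 9 and 5 without the lung of Rat3789. Of 5 epithelial markers of 4T1 cells, 2 were lower in lung than in core and 5 lower in lung than in rim, with the same counts without that lung. Of 5 mitotic genes, 5 were higher in lung than in core and 0 were called against rim, where 1 was higher without that lung. The part of these signals in the lung results was not tested. Under total-count scaling the share of called genes that were higher moved to 60.8% from 49.4% for lung versus rim and to 62.0% from 47.2% for lung versus core.

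In the rat genes lung is a different host tissue, so the values compare tissues. Lung versus core, 7 of the 9 rat members were lower, against 14.9% of genes, and those 7 did not overlap, against 10.3% of genes lower with no overlap. Rat Hspa1b had 10.2 to 22.4 CPM in lungs, against 67.9 to 361 CPM in cores, at -3.65 ± 0.42 (limma, adjusted p = 0.000188) and at -3.54 without the lung of Rat3789. Rat Hsph1 had 99.3 to 130.3 CPM in lungs, against 148 to 669 CPM in cores, at -1.59 ± 0.32 (limma, adjusted p = 0.00359). The other 5 called, Hspd1, Hspe1, Hsp90aa1, Hspa8 and Dnajb1, fell by 0.60 to 0.99 on the log2 scale. Without the lung of Rat3789, 8 of the 9 were lower, against 17.1% of genes, Chordc1 joining at -0.48 ± 0.17 (limma, adjusted p = 0.0413).

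Lung versus rim, 0 of the 9 rat members were called by limma, against 10.5% of genes called higher and 11.6% called lower, and edgeR also called 0. At an unadjusted p under 0.05, 1 of the 9 passed in limma, Hspb1, against 4806 of the 13841 rat genes tested. Rat Hspb1 had 147, 122, 106 and 149 CPM in the lungs of Rat3869, Rat3875, Rat3876 and Rat3877 and 34.4 CPM in the lung of Rat3789, against 47.7 to 74.5 CPM in rims. The lung of Rat3789, low in the epithelial markers of the others except Hopx, was below every rim, and the 4 others were above every rim. The difference was 0.80 ± 0.36 with all 5 lungs (limma, adjusted p = 0.142) and 1.18 ± 0.15 without that of Rat3789 (limma, adjusted p = 0.000175), against 15.4% of genes called higher in that fit. Rat Hspa1b, with 9.68 to 64.9 CPM in rims, differed by -0.45, with a 95% interval of -1.51 to 0.62, and by -0.33 without the lung of Rat3789. Under total-count scaling the median of all rat genes moved to 0.15 from 0.02, and the share of called genes that were higher to 66.0% from 47.6%; for lung versus core that median moved to 0.14 from 0.03 and that share to 67.4% from 54.5%.

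Compared per kilobase of exon, the 10 mouse genes differed widely in level. In cores Hsp90aa1 averaged 412 ± 147 CPM per kb and Hspa8 333 ± 40.8 (SD, n = 5 each), which did not differ beyond their spread, followed by Hspd1 at 222 ± 51.3, Hspe1 at 129 ± 58.8 and Hspa1b at 121 ± 109.6. In rims Hspa8 averaged 346 ± 43.0 CPM per kb, Hsp90aa1 300.3 ± 92.8, Hspd1 198 ± 30.7, Hspe1 88.6 ± 17.5 and Hspa1b 18.9 ± 11.6. Hspa1b thus neighbours Hspe1 in cores within their spread, and lies below it in rims by more than either SD. The length used was every annotated exon base of a gene, whichever transcripts were made, which can shift a ranking between genes. How reads matching both Hspa1 copies were counted is not stated, so the level of Hspa1b may be too low. Hspb1 averaged 39.3 ± 35.6 CPM per kb in cores and 3.12 ± 1.41 in rims, and Hspa1a 0.564 ± 0.430 in cores and 0.165 ± 0.105 in rims.

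The single-species controls give the levels outside the tumor, in tables scaled separately and with 1 or 2 libraries, so no test was made. The lowest mouse Hspb1 level among tumor and lung libraries was 1.72 CPM, against 0.951 CPM in the 4T1 pellet (95% Poisson interval for counting error, 0.632 to 1.37). The highest mouse Hspe1 level was 332 CPM in the core of Rat3869, against 358 CPM in the pellet. Mouse Hspa1b in rims, at 25.7 to 105 CPM, ranged on both sides of its 60.9 CPM in the pellet. The lowest rat Hspa1b level in cores, lungs and rims was 9.68 CPM, against 6.28 and 6.36 CPM in the 2 mammary glands, and the lowest rat Hsp90aa1 level was 46.2 CPM, against 12.8 and 29.0 CPM in the glands. Rat Hspb1 reached at most 204 CPM in cores, lungs and rims, against 673 and 570.4 CPM in the glands.

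Wider chaperone lists place the members in the proteostasis network, with some genes in more than 1 list. The shares to read the counts against are 10.1% of all mouse genes called higher in core, and 17.5% called higher and 20.1% called lower among all rat genes. Without Rat3867 and Rat3869 the shares called higher were 5.29% in mouse and 10.5% in rat. In the mouse genes, core versus rim, 6 of 20 other HSF1 targets were higher and 0 lower, led by Hmox1 at 2.29, Zfand2a at 1.46 and Cryab at 1.09; Hmox1 degrades heme and Cryab is a small chaperone. Of 5 small heat shock genes tested, 4 were higher, led by Hspb2 at 1.51 and Hspb6 at 1.25. Hspb2 was low, at 2.06 to 3.98 CPM in cores, against 0.474 to 2.47 CPM in rims, and the groups overlapped. Cryab and Hspb8, also called here, are among the 6 HSF1 targets above. Counts elsewhere were 4 of 16 for the HSP70 family and its exchange factors, 3 of 15 for HSP40 cochaperones, 3 of 15 for the HSP90 family and its cochaperones, 3 of 12 for ER chaperones, 1 of 10 for mitochondrial chaperones and proteases, and 1 of 14 for the cytosolic TRiC chaperonin and prefoldin, all higher. Of 9 heat shock factors and regulators, Hdac6 was higher at 0.42 and none lower. Without Rat3867 and Rat3869 the HSF1 targets counted 3, the small heat shock genes 2, HSP40 cochaperones 1, and the HSP70, HSP90, ER and mitochondrial lists and the regulators 0, while TRiC and prefoldin counted 0 higher and 1 lower.

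In the rat genes, 13 of 20 other HSF1 targets were higher in core, led by Zfand2a at 1.53, Hmox1 at 1.10 and Cryab at 0.96, while Serpinh1, the collagen chaperone, was lower at -2.59 beside the fall of fibroblast markers, and Hspb8 was lower at -0.90. TRiC and prefoldin counted 10 of 14 higher, led by Vbp1 at 0.74, Cct7 at 0.59 and Cct8 at 0.55. Mitochondrial chaperones and proteases counted 7 of 9, led by Clpp at 0.69, Lonp1 at 0.53 and Hspa9 at 0.50, and the HSP90 family and its cochaperones 9 of 15, led by Hsp90ab1 at 0.65, Stip1 at 0.65 and Fkbp4 at 0.54. HSP70 and exchange factors counted 7 higher and 1 lower of 16, HSP40 cochaperones 6 higher and 1 lower of 15, ER chaperones 6 higher of 12, and small heat shock genes 2 higher and 1 lower of 6. Of 9 heat shock factors and regulators, 3 were lower, namely Akap12 at -1.50, Hsf4 at -0.98 and Hsbp1 at -0.59, and none higher. List medians ran from -0.35 to 0.57 in the rat and from 0.04 to 1.09 in the mouse. Without Rat3867 and Rat3869 the HSF1 targets counted 10 higher and 2 lower, the regulators 2 lower and TRiC and prefoldin 8 higher, while the mitochondrial, HSP90 and HSP70 lists counted 3 each, HSP40 and ER 2 each and small heat shock genes 0 higher and 1 lower.

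**Figure D5:**
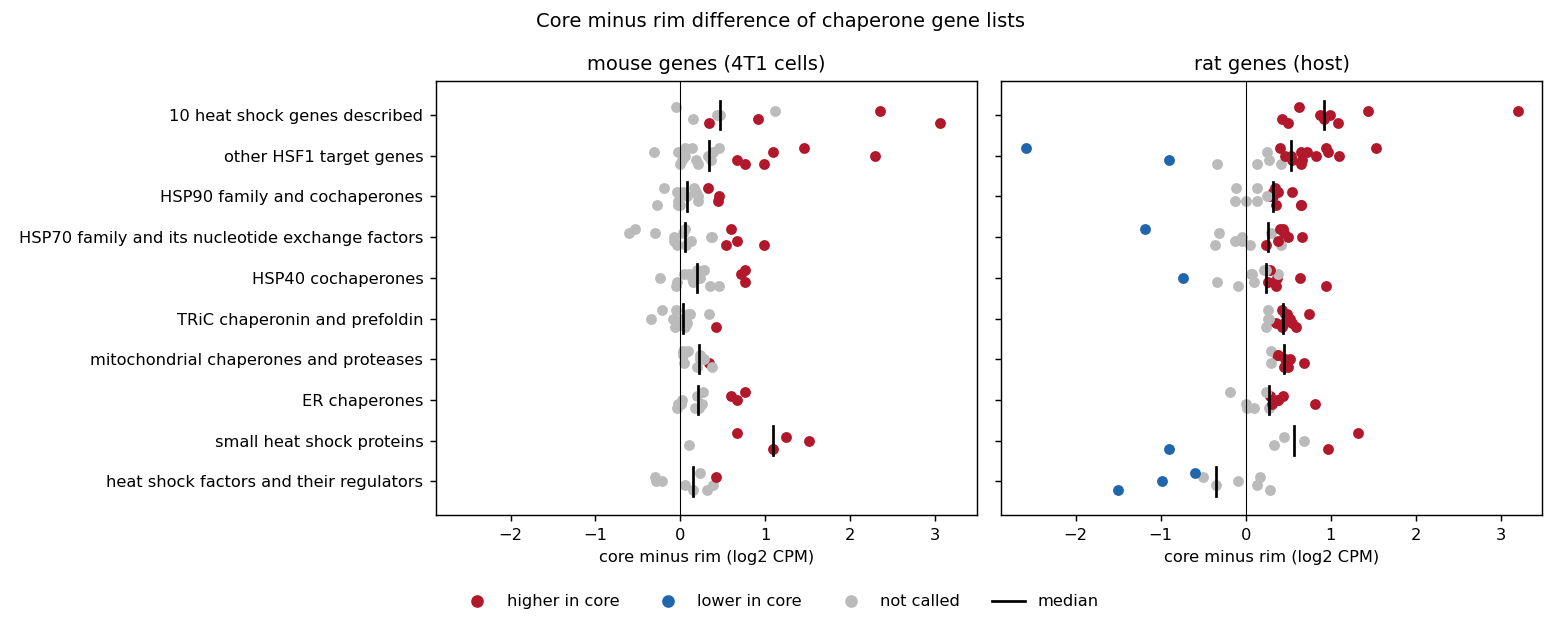
Log2 difference, core minus rim, of each gene in the chaperone lists, for mouse genes (left) and rat genes (right); red points were called higher, blue lower, gray not called, and black bars are list medians. In the TRiC chaperonin and prefoldin list 1 of 14 mouse genes and 10 of 14 rat genes are red.

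Across the 15 core, rim and lung libraries, the genes whose mouse log2 CPM ran most like Hspa1b were Nfil3 (Pearson r = 0.94), Ifrd1, Kansl2, Mafk and Pip4p1, and most like Hspd1 were Nop56 (r = 0.94), Ddx18, Rrs1, Dhx29 and Mak16. In the rat, the genes most like Hspa1b included Cstb (r = 0.96), Spp1 and Bcl2a1, and those most like Hspd1 were Stip1 (r = 0.99), Tufm, Gpr137b, Spns1 and Fkbp4. These coefficients describe points that share animals, groups and scaling.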

How the data were processed

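Per the submitters' processing notes, reads were handled with Trim Galore, STAR, featureCounts and limma on the builds GRCm38 and Rnor_6.0; their versions, how species were separated and whether counting used strand are not stated there. The deposited signal values of tumor and lung libraries are CPM of the kind limma makes from read counts plus 0.5, scaled within a species, and 100% of them gave whole reads within 0.01. The authors also deposited read counts for the pellet and gland libraries, which were divided by their totals. In the deposited sample names "in" was read as core and "out" as rim. Gland columns could not be matched to single glands. 

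Log2 values were tested with limma 3.58.1 in R 4.3.3 (empirical Bayes with trend, two-sided), after a filter of 1 CPM in at least 5 of the libraries compared and with no added pseudocount. Rat was a block for core versus rim, since regions came from the same animals per the labels; deviations from group means correlated at -0.18 to 0.24 within rats for mouse genes and 0.03 to 0.34 for rat genes. Lung comparisons had no block, as only 4 rats paired. The planned test for counts, edgeR 4.0.16, was run on the recovered reads as an alternative. Other alternatives were no filter, 2 scalings, a pseudocount of 1 CPM, subtraction of misplaced reads, summed copies, and each animal left out. Transcripts were taken from GENCODE for GRCm38, and no rat annotation was used. Mouse and rat differences were set against each other within each animal, and comparisons that share core, rim or lung libraries of 1 species were not. Intervals on single control libraries cover counting error only.

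The 10 members and the gene lists were chosen with earlier results of these data known. All members are named, and of each other list up to 3 called genes with the largest difference.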

Additional observations from a re-analysis of the deposited data

Results flagged for a closer look

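In 57 groups of 5 libraries, 1 held a library far from the rest, where chance gives about 1 in 20. Mouse Chordc1 in the core of Rat3875 was 84.1 CPM, against 110.8 to 115.6 CPM in the other 4 cores. In the within-animal test of mouse minus rat, the core minus rim difference was called for 4 of the 9 shared members. That count is near the share over all shared symbols, 34.7%. The values were 1.96 for Hspb1, -0.78 for Hspd1, -0.54 for Hspe1 and -0.68 for Hspa8 on the log2 scale. The call of Hspb1 was lost without Rat3867, Rat3869 or Rat3877, that of Hspe1 without Rat3875, Rat3876 or Rat3877, and the rat side of Hspb1 cannot be told apart from misplaced mouse reads.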

How the results depend on the processing

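No member difference changed direction while called in the main or the alternative fit. The 1001 recomputed values also include counts of calls, which have no direction. Sign changes of values called in neither fit were not counted, as for mouse Hspa1b lung versus rim, from -0.31 to 0.33. Called members, core versus rim, mouse genes, numbered 2 to 5 with 1 animal left out and 1 without Rat3867 and Rat3869, a choice made after seeing the data; core versus rim, rat genes, they numbered 8 to 9 and 6. Over all genes the calls for core versus rim were 1272 to 2397 in mouse with 1 animal left out and 1405 without both, from 2585, and 3346 in rat without both, from 5092. Lung versus rim, mouse genes, the members called numbered 4 under total-count scaling, 0 with edgeR, 3 with the replicate block in the 4 paired rats and 0 to 3 with 1 animal left out, with 1312 to 2831 calls over all genes. Lung versus rim, rat genes, 1 member (Hspb1) was called with the replicate block, and 0 to 1 with 1 animal left out, with 1509 to 4113 calls over all genes. Lung versus core, calls over all genes ran from 2988 to 5015 in mouse and from 2652 to 5098 in rat with 1 animal left out. Core minus rim, mouse minus rat, 2 to 4 members and 2213 to 3301 genes were called with 1 animal left out. Without the replicate block in core versus rim, 5 mouse and 8 rat members were called; the paired fit changed no other member's call there. The cause was not tested, but each fit with animals left out rests on fewer libraries. Rat depth, the lower of the 2, gave 43 to 333 reads for Hspa1b in rims.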
